A study of Mus musculus with 3 samples.

Results

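The semaphorins, plexins and neuropilins are a family of guidance ligands and their receptors, here followed across the cells of the mouse diaphragm. The members were chosen by symbol as every semaphorin of classes 3 to 7, every plexin of types A to D and both neuropilins in the deposited gene list, and this gave 31 of 32285 genes, made up of 20 semaphorins, 9 plexins and 2 neuropilins. All 31 had at least 1 unique molecular identifier (UMI, a tag that marks 1 captured transcript) in each library. The data are 3 single-cell RNA-Seq libraries (10x Genomics 3′ chemistry) of mononuclear cells freed from costal diaphragm with collagenase II, from which DAPI-stained dead cells were removed by flow cytometry. WT CD came from C57Bl/6J mice on control diet for 6 months, WT HFD from C57Bl/6J mice on high-fat diet with 45% of kcal from lipid for 6 months, and KO HFD from B6.129S2-Thbs1tm1Hyn/J mice on the same high-fat diet for 6 months. These KO mice lack thrombospondin 1, a matricellular protein, in the whole body. All mice were male and started the diets at 2 months of age. The control diet was a standard chow that was not matched to the high-fat diet in micronutrients. Each library pooled a pair of mice, and cells were not traced to a mouse, so each group is 1 sample and no test between groups was possible. The intervals below are 95% Poisson intervals that cover counting error only, not the spread between animals or between cells.

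Semaphorins are secreted or membrane-bound proteins first known for steering axons. Class 3 semaphorins are secreted and mostly signal through a neuropilin, which binds the ligand, and an A-type plexin, which carries the signal into the cell. Sema3e differs in that it binds Plxnd1 directly. Semaphorins of classes 4 to 7 are held in the membrane and mostly bind plexins without a neuropilin, and Nrp1 and Nrp2 also bind VEGF family ligands. In blood vessels the family guides sprouting, and in muscle it takes part in innervation and in the fibre repair that satellite cells carry out.

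The libraries (WT CD first, then WT HFD, then KO HFD, the order used throughout) held 4132, 3774 and 4369 barcodes and 34312860, 31967976 and 36478779 UMIs, of which 14829, 17851 and 18467 belonged to members. Barcode sequences shared with another library numbered 14, 9 and 9. Cells were clustered without the members and named from marker genes. FAP-like cells (fibro-adipogenic progenitors, the Pdgfra-expressing connective tissue cells of muscle) numbered 2009, 1690 and 2194 in the 3 libraries. A cluster led by Dio2 and Pthlh, with 222, 292 and 205 cells, scored best on the FAP markers, but a tenocyte marker stood among its leading genes and it was kept apart. MuSC-like cells (muscle satellite cells) numbered 421, 307 and 492, endothelial-like cells 312, 309 and 259, and macrophage-like cells 232, 408 and 443. Lymphatic-like, mesothelial-like, Schwann-like and B cell-like classes, dendritic cell-like cells and lymphocytes named T or NK cell-like also held at least 20 cells in every library, which made 11 classes to compare. A level in CPM is the summed UMIs of a gene over all cells of a class in a library, scaled to 1e+06 UMIs of the same cells. They depend on how well the 3′ end of each transcript is captured, so a level is compared between cells for the same gene and never between genes.

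Of the 31 members, 27 reached 20 CPM in at least 1 class in at least 1 library and are described here. Their highest class by the mean over the libraries was lymphatic-like for 6, endothelial-like for 6, Schwann-like for 6 and mesothelial-like for 4. FAP-like, dendritic cell-like, macrophage-like, B cell-like and finally T or NK cell-like cells each had the highest level of 1. This ranking covers only the compared classes, each with at least 20 cells in every library. Of the classes left out, monocyte-like and neutrophil-like cells had a higher Sema4d level, over all libraries, than T or NK cell-like cells. Likewise, Sema4a was higher in neutrophil-like than in macrophage-like cells, and Plxnb2 in monocyte-like than in mesothelial-like cells. The same class was highest in all 3 libraries for 19 of the 31 members. For 8 of these, Nrp1, Nrp2, Sema3b, Sema3d, Sema3f, Sema3g, Sema6a and Sema7a, the interval of the highest class lay above those of all 10 other classes in every library.

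**Figure D1:**
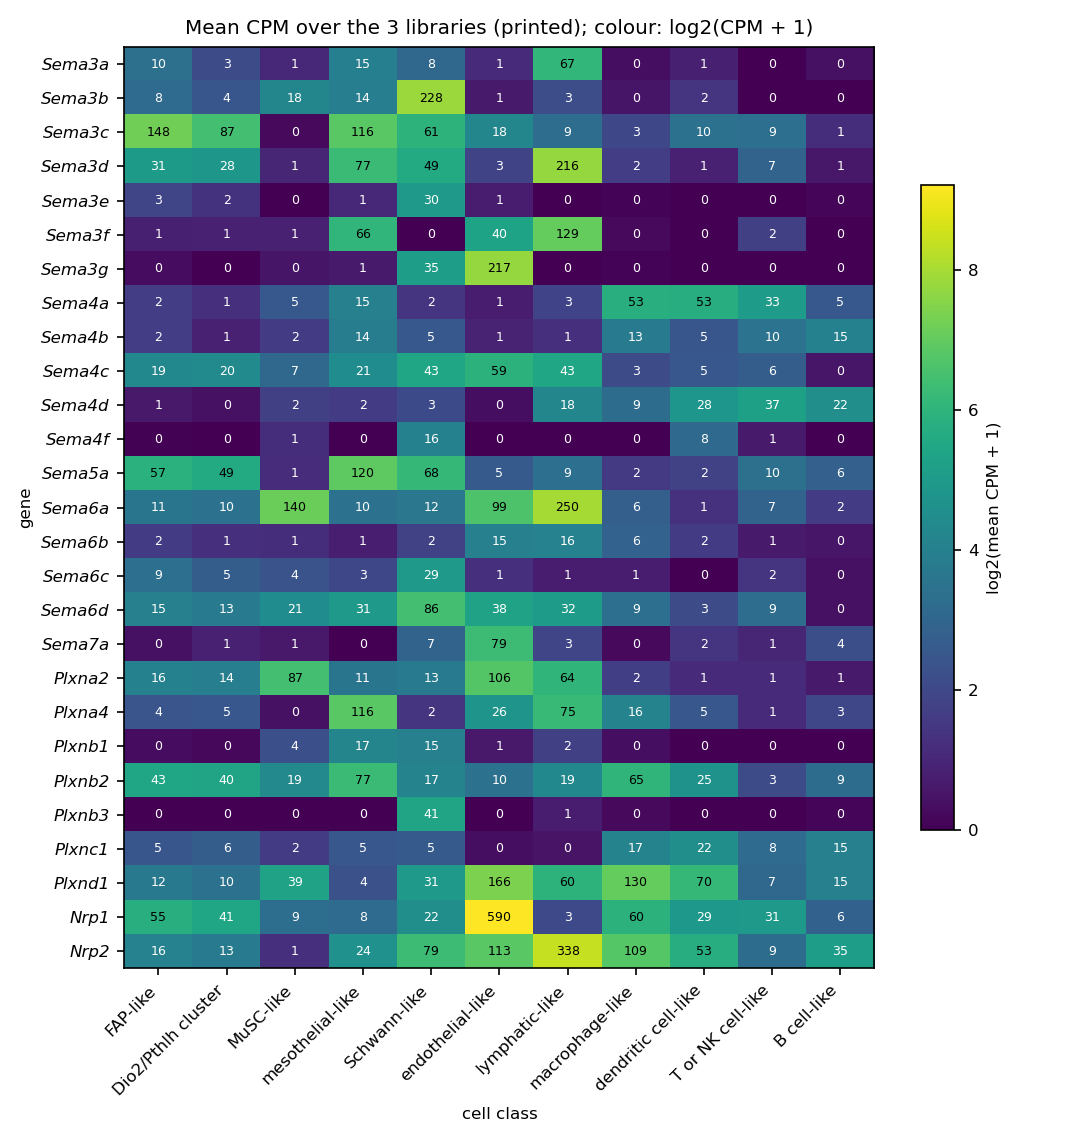
Mean level of the 27 described members (rows) in 11 cell classes (columns), as CPM averaged over the 3 libraries. The colour is log2(mean CPM + 1) and the printed number is the mean CPM. Nrp1 is highest in endothelial-like cells, Nrp2 and Sema6a in lymphatic-like cells, and Sema3c is highest by the mean in FAP-like cells, close to mesothelial-like cells.

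Among the secreted class 3 ligands, Sema3c was the only member highest in FAP-like cells, at 117 CPM (interval 112 to 122) in WT CD, 185 (178 to 192) in WT HFD and 142 (137 to 147) in KO HFD. Mesothelial-like cells, the lining of the body cavities, came next with 97.0, 163 and 87.0 CPM, and the order of these 2 classes did not clear counting error in every library. MuSC-like cells gave 1 Sema3c UMI over all 3 libraries. In Schwann-like cells of KO HFD, Sema3c stood at 145 CPM against 22.5 and 15.5 CPM in the other libraries, but 20 of its 30 UMIs came from 1 cell, and without that cell the level was 53.0 CPM. The same held in endothelial-like cells, where 1 cell gave 25 of the 34 Sema3c UMIs of KO HFD and the level fell from 32.4 to 8.67 CPM without it.

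The promoter of Sema3c is shown because this gene marks 1 FAP state below. It covers 250 bases before to 50 after a RefSeq start on the plus strand, chr5:17574566-17574865 (GRCm38.p6). GENCODE starts the gene at 17574281, so this window lies inside the gene as placed there. Capitals mark the GC box GGGCGG, read on both strands.
Sema3c: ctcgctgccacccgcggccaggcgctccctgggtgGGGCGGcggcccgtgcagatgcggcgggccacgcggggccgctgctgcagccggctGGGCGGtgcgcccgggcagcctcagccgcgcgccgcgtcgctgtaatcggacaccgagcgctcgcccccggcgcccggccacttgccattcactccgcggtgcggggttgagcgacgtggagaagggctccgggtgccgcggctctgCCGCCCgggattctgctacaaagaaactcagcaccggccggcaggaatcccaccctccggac
It held 3 GC boxes, and neither the E-box CAGCTG nor the TATA box TATAAA was in this window. A GC box was in 35.7% of the 32851 promoters of this length and in 73.0% of the 37 promoters of the 26 members that the table held.

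Lymphatic-like cells had the highest level of 3 other class 3 ligands. Sema3d, which acts on endothelial and neural crest cells in development, stood there at 201, 243 and 205 CPM in WT CD, WT HFD and KO HFD, 2.81-fold above mesothelial-like cells by the mean. Sema3a, the classic axon repellent, stood at 58.6, 82.4 and 59.1 CPM, and Sema3f, a ligand of Nrp2, at 138, 117 and 133 CPM. In blood endothelial-like cells Sema3a was at 1.63 CPM or lower in every library, while Sema3f was at 43.5, 39.9 and 35.2 CPM.

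Sema3g was concentrated in endothelial-like cells, at 209, 201 and 240 CPM. Schwann-like cells, the glia of peripheral nerve, came next with 14.99, 69.8 and 19.3 CPM on only 2, 9 and 4 UMIs. Schwann-like cells had the highest level of Sema3b, at 277, 217 and 188 CPM, which was 12.8-fold above MuSC-like cells by the mean. They were also highest in Sema3e, at 7.50, 38.8 and 43.4 CPM, on 1, 5 and 9 UMIs. These cells numbered 33, 30 and 40, so their low counts set wide intervals.

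The membrane-bound semaphorins of class 6 were spread over several tissues. Sema6a, which can also act as a receptor, was highest in lymphatic-like cells, at 235, 264 and 253 CPM. MuSC-like cells followed at 134, 143 and 143 CPM and endothelial-like cells at 92.1, 117 and 88.5 CPM. The 3 classes did not overlap in any library except for MuSC-like and endothelial-like cells of WT HFD, whose intervals were 126 to 162 and 98.2 to 137. Sema6d was highest in Schwann-like cells at 112, 54.3 and 91.6 CPM. This gene lies on chromosome 2, 5.96 Mb from Thbs1, so in KO HFD the deleted gene and flanking DNA from the 129S2 strain cannot be told apart as sources of a change. Sema6c was highest in Schwann-like cells by the mean, at 52.5, 31.03 and 4.82 CPM on 7, 4 and 1 UMIs. Sema6b was at 7.65, 14.1 and 25.9 CPM in lymphatic-like cells and 13.4, 17.9 and 14.3 CPM in endothelial-like cells, and which was higher differed between libraries.

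Of classes 4, 5 and 7, Sema7a, a ligand anchored by glycolipid that binds Plxnc1 and integrins, was highest in endothelial-like cells at 102, 59.5 and 75.2 CPM, 11.9-fold above Schwann-like cells. Sema4c, a Plxnb2 ligand, was highest there as well, at 66.1, 60.3 and 49.5 CPM. Sema5a reached 132, 137 and 92.4 CPM in mesothelial-like cells and 61.6, 50.9 and 59.5 CPM in FAP-like cells. Sema4a, known from T cell priming, was at 59.4, 49.5 and 50.8 CPM in macrophage-like cells and 41.9, 68.4 and 48.0 CPM in dendritic cell-like cells, which did not separate. Sema4d, the CD100 antigen of lymphocytes, was at 41.1, 36.0 and 33.9 CPM in T or NK cell-like cells. Sema4b was at 21.1, 13.9 and 11.4 CPM in B cell-like cells, close to mesothelial-like cells. Sema4f reached 24.1 CPM in Schwann-like cells of KO HFD on 5 UMIs.

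Among the receptors, Nrp1, the coreceptor for VEGF and class 3 semaphorins, stood at 594 CPM (551 to 639), 644 (600 to 690) and 532 (489 to 578) in endothelial-like cells. That was 9.90-fold above macrophage-like cells by the mean, and lymphatic-like cells gave only 1, 1 and 3 Nrp1 UMIs. Nrp2 had the reverse order between the vessel classes. It stood at 344 CPM (289 to 407), 403 (361 to 448) and 266 (224 to 313) in lymphatic-like cells and at 77.0, 150 and 113 CPM in endothelial-like cells. Macrophage-like cells held Nrp2 at 119, 82.6 and 126 CPM.

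With every cell thinned to 3000 UMIs, 69.5% of 502 endothelial-like cells (exact binomial interval 65.3% to 73.5%) had an Nrp1 UMI, and 1.10% of 545 B cell-like cells had one. The share among all endothelial-like cells, not thinned, was 75.2%. The median depth of a cell was 3319 UMIs in the endothelial-like class and 7416 among B cell-like cells. An Nrp2 UMI was found in 57.2% of 236 thinned lymphatic-like cells (50.6% to 63.6%) and in 0.269% of 1115 MuSC-like cells. Thinning left out 378 endothelial-like and 38 lymphatic-like cells that were shallower than this depth.

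Among the plexins, Plxnd1, the receptor of Sema3e and partner of neuropilins in vessels, was highest in endothelial-like cells at 187, 163 and 148 CPM. Macrophage-like cells followed at 141, 102 and 147 CPM, and the intervals overlapped in KO HFD. This order turned when the members were kept in the clustering, where a cluster holding most of the Mmp12 and Retnla macrophage-like cells was named dendritic cell-like and stood at a mean of 180.4 CPM against 176 in endothelial-like cells. Plxna2, a receptor of Sema6a, was at 90.4, 134 and 94.2 CPM in endothelial-like cells and 64.0, 100 and 97.9 CPM in MuSC-like cells. Among the compared classes, Plxna4 and Plxnb2 were highest in mesothelial-like cells, Plxna4 at 92.7, 133 and 121 CPM. Plxnb2 stood at 81.9, 78.5 and 70.7 CPM in mesothelial-like cells and at 65.5, 66.4 and 62.3 CPM in macrophage-like cells, close together. Plxnc1, the receptor of Sema7a, was below 30 CPM in every class, with 26.2, 11.0 and 29.7 CPM in dendritic cell-like cells. Plxnb3, a receptor of Sema5a, was highest in Schwann-like cells, which held 10, 3 and 5 of its 13, 3 and 8 UMIs in the libraries. Plxnb1, a receptor of Sema4d, reached 24.4 CPM in mesothelial-like cells of WT HFD. Plxna1, Plxna3, Sema4g and Sema5b stayed under 20 CPM in every class.

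A neuropilin and an A- or D-type plexin are the 2 parts of a class 3 receptor, and they were looked for in the same cell. After thinning, 76.5% of endothelial-like cells had a neuropilin UMI, 55.4% had one of these plexins and 44.4% (40.02% to 48.9%) had both. In lymphatic-like cells 25% (19.6% to 31.03%) had both and in macrophage-like cells 12.8% (10.8% to 14.96%). MuSC-like cells had one of these plexins in 32.2% and a neuropilin in 2.60%, and 0.628% had both. In FAP-like cells the share with both was 2.13% (1.77% to 2.54%). Whether the 2 parts fell in the same cell more often than their separate shares would give was not tested.

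FAP-like cells fell into 5 states formed without the members. The FAP1-like, FAP2-like and FAP4-like states carried the markers of those subpopulations, and the others are called here by their leading genes, Il6 and Myc or Timp1 and Col6a5. FAP2-like cells numbered 373, 418 and 378, which was 18.6%, 24.7% and 17.2% of the FAP-like cells of each library. Sema3c was highest in FAP2-like cells in every library, at 360 CPM (342 to 379) in WT CD, 481 (461 to 501) in WT HFD and 454 (434 to 476) in KO HFD. The next state by the mean, FAP4-like, had 54.2, 81.6 and 62.6 CPM, so that the mean differed 6.53-fold. The Il6 and Myc state stood above FAP4-like cells in WT CD (54.6 CPM) and KO HFD (65.4 CPM). So did the Timp1 and Col6a5 state in KO HFD (73.9 CPM). FAP1-like cells had the lowest level, at 16.7, 19.7 and 24.7 CPM.

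**Figure D2:**
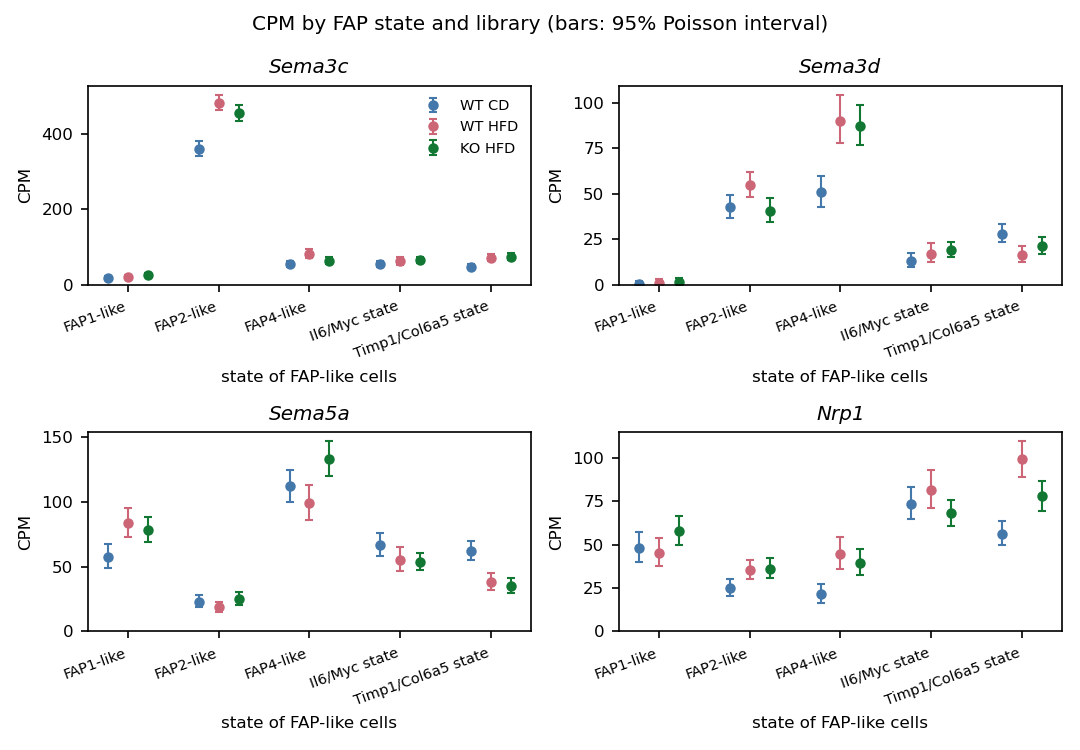
CPM of Sema3c, Sema3d, Sema5a and Nrp1 (y axis) in the 5 states of FAP-like cells (x axis) in each library. Points are library values and bars the 95% Poisson intervals. Sema3c is at 360 to 481 CPM in FAP2-like cells and under 82 CPM in the other states, while Sema5a is lowest in FAP2-like cells in every library.

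Other members divided the states in different ways. Sema3d stood at 50.8, 90.1 and 87.2 CPM in FAP4-like cells and at 42.6, 54.9 and 40.7 CPM in FAP2-like cells, but at no more than 1.54 CPM in FAP1-like cells. Sema5a was highest in FAP4-like cells, at 112, 98.7 and 133 CPM, and lowest in FAP2-like cells, at 22.9, 18.6 and 24.7 CPM. Plxna4 was at 17.2, 21.9 and 15.3 CPM in FAP4-like cells and at 6.09 CPM or lower in the other states. Sema6a was at 25.5, 25.2 and 26.8 CPM in FAP1-like cells, 2.58-fold above the next state by the mean. Sema3e, low in FAP-like cells as a whole, lay mainly in FAP2-like cells at 8.22, 12.9 and 6.49 CPM. For Sema3c, Sema3e, Plxna4 and Sema6a the interval of the highest state lay above those of the other 4 states in all 3 libraries. The receptor Nrp1 was lower in FAP2-like cells, at 24.9, 35.2 and 36.2 CPM, than in the Timp1 and Col6a5 state, at 56.4, 99.3 and 77.9 CPM. Plxnd1 was at 2.99, 3.39 and 3.25 CPM in FAP2-like cells and 18.9, 25.3 and 19.7 CPM in the Il6 and Myc state.

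Endothelial-like cells were divided again without the members into artery-like (135, 96 and 97 cells), capillary-like (107, 123 and 88) and vein-like (14, 42 and 22) subclusters. The subclusters without a name were 1 of 100 cells with high mitochondrial content and a median of 931.5 UMIs per cell, and smaller ones led by Clec3b and Smoc2, by Nppc and Gal and by Col13a1 and Esm1. Sema3g separated arteries, at 333 CPM (289 to 382), 451 (391 to 517) and 479 (417 to 549) in artery-like cells. Capillary-like cells had 58.5, 59.6 and 37.3 CPM and vein-like cells 17.4, 4.86 and 8.47 CPM, on 1 UMI in each library. Nrp1 was highest in capillary-like cells, at 1025, 1247 and 1110 CPM, with 427, 415 and 392 CPM in artery-like and 295, 248 and 212 CPM in vein-like cells. Nrp2 was low in artery-like cells, at 31.3, 31.2 and 34.2 CPM, and stood at 148, 207 and 191 CPM in capillary-like cells. In vein-like cells it stood at 139 CPM (60.0 to 274, on 8 UMIs), 364 (286 to 456) and 313 (221 to 432). Plxnd1 was at 268, 262 and 253 CPM in capillary-like cells against 162, 107 and 141 CPM in artery-like cells, and their intervals did not overlap in any library. Plxnb2 was near 0 in artery-like and capillary-like cells and at 52.1, 34.0 and 25.4 CPM in vein-like cells, on 3, 7 and 3 UMIs.

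**Figure D3:**
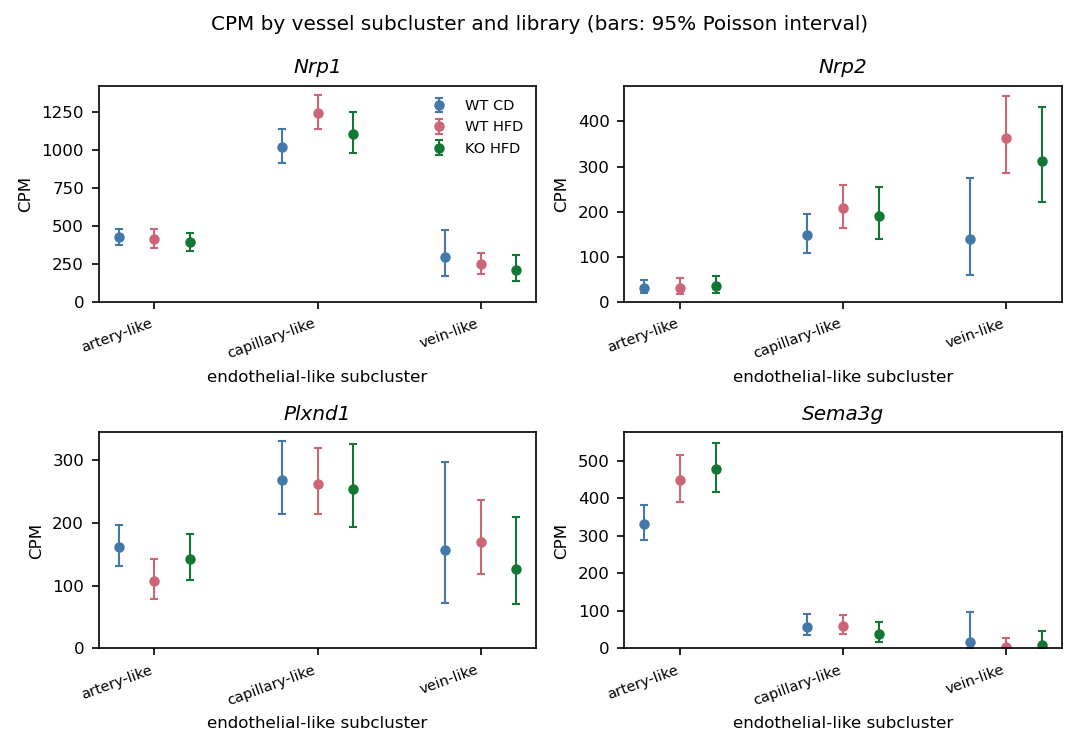
CPM of Nrp1, Nrp2, Plxnd1 and Sema3g (y axis) in artery-like, capillary-like and vein-like cells (x axis) in each library, with 95% Poisson intervals. Sema3g is at 333 to 479 CPM in artery-like cells and under 60 CPM elsewhere, and Nrp1 is at 1025 to 1247 CPM in capillary-like cells and at 427 CPM or lower in the others.

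The promoters of Sema3g and Nrp1 are shown because these genes separated the vessel subclusters. They come from RefSeq (GRCm38.p6, plus strand), chr14:31217623-31217922 for Sema3g and chr8:128358823-128359122 for Nrp1, with the GC box GGGCGG and the E-box CAGCTG in capitals, read on both strands.
Sema3g: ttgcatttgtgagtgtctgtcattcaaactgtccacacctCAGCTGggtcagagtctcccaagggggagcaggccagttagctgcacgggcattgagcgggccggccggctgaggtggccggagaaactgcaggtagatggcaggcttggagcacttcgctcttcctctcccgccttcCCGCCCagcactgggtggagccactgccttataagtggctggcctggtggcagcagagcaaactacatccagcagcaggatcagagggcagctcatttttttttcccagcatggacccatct
Nrp1: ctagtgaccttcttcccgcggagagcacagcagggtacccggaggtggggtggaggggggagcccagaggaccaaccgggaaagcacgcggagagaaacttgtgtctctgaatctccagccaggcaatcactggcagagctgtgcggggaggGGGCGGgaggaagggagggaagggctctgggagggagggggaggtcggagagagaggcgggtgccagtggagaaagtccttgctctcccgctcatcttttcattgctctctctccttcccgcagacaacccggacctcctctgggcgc
Sema3g held 1 GC box and 1 E-box and Nrp1 held 1 GC box. GENCODE starts the Nrp1 gene at 128358604, so the Nrp1 window lies inside the gene as placed there. An E-box of these letters was in 16.3% of all promoters of this length.

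Macrophage-like cells held a Folr2 and Cd163 subcluster (49, 117 and 124 cells, resident macrophage markers), a Mmp12 and Retnla subcluster (84, 90 and 161) and a Prg4 and Alox15 subcluster (7, 53 and 14), beside 4 others without a name. The Mmp12 and Retnla cells pooled a part led by Dcstamp (82, 58 and 122 cells) and a part led by Mmp12, Gpnmb and Spp1 (2, 32 and 39 cells). Sema4a was at 113, 119 and 117 CPM in the Folr2 and Cd163 cells, at 59.7, 34.3 and 40.1 CPM in the Mmp12 and Retnla cells and at 19.9, 2.47 and 14.1 CPM in the Prg4 and Alox15 cells. Nrp1 was likewise highest in the Folr2 and Cd163 cells, at 161, 162 and 133 CPM, against 25.2, 48.0 and 41.9 CPM in the Mmp12 and Retnla cells. In WT HFD and KO HFD, Nrp1 was at 27.7 and 29.5 CPM in the part led by Dcstamp and at 84.5 and 74.8 CPM in the part led by Mmp12 and Gpnmb. Sema4a was at 45.9 and 48.4 CPM in the first part and at 13.4 and 18.4 CPM in the second. Plxnd1 had the opposite order, with 209, 219 and 199 CPM in the Mmp12 and Retnla cells and 45.3, 56.7 and 69.5 CPM in the Folr2 and Cd163 cells. Within the former it was at 264 and 226 CPM in the part led by Dcstamp and at 138 and 130 CPM in the part led by Mmp12 and Gpnmb, in WT HFD and KO HFD. In the Prg4 and Alox15 cells Nrp2 gave 2, 1 and 7 UMIs.

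**Figure D4:**
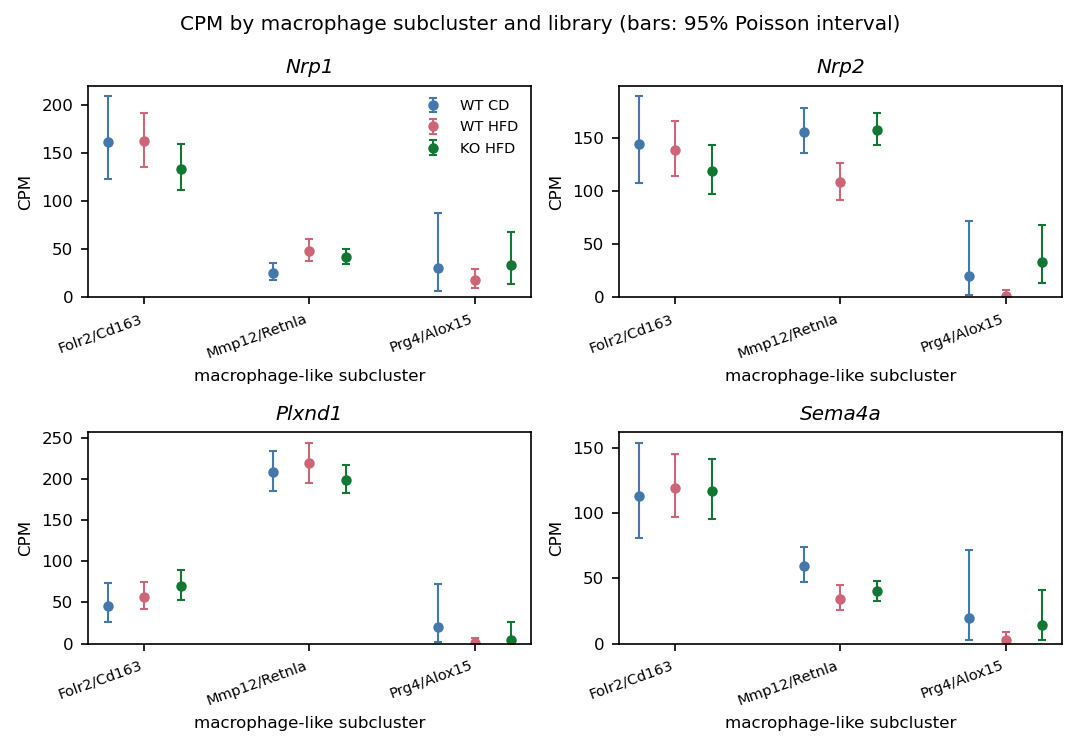
CPM of Nrp1, Nrp2, Plxnd1 and Sema4a (y axis) in 3 macrophage-like subclusters (x axis) in each library, with 95% Poisson intervals. Nrp1 and Sema4a are highest in the Folr2 and Cd163 subcluster and Plxnd1 in the Mmp12 and Retnla subcluster, in all 3 libraries.

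The libraries were next compared within FAP-like, MuSC-like, endothelial-like and macrophage-like cells. A gene was called where the CPM of 2 libraries differed 1.5-fold or more and their intervals did not overlap, among genes with at least 50 UMIs over the pair. The share of all genes called in a class is the background for its members. Thbs1 itself did not fall with the KO label in FAP-like cells, at 187, 190 and 227 CPM in WT CD, WT HFD and KO HFD. Its 3′ reads may lie outside the disrupted part of the gene, so this checks nothing about the genotype. Thbs1 was called higher in KO HFD than in WT HFD in MuSC-like cells (21.8, 8.77 and 31.6 CPM in the 3 libraries) and in endothelial-like cells (35.2, 10.6 and 39.0 CPM), and lower in WT HFD than in WT CD in both. In macrophage-like cells Thbs1 stood at 105, 352 and 75.4 CPM, called higher in WT HFD than in WT CD and lower in KO HFD than in WT HFD, and the Prg4 and Alox15 cells, where it reached 1063, 1627 and 835 CPM, numbered 7, 53 and 14. Without these and the Mmp12 and Gpnmb cells, Thbs1 stood at 69.6, 68.7 and 42.6 CPM and was not called in WT HFD against WT CD but was still called lower in KO HFD than in WT HFD.

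For WT HFD against WT CD in FAP-like cells, 2 of 22 tested members were called, both higher, against 2.84% of 11841 genes. Sema3c was 1.58-fold higher in WT HFD (log2 ratio 0.66 ± 0.08, 95% counting interval). It is among the transcripts the study singled out on these libraries, so its direction is not independent evidence. Within FAP2-like cells it was higher by 0.42 on the log2 scale, which is under the fold needed for a call. The share of FAP2-like cells was also higher in WT HFD, and with the 5 states weighted alike the log2 ratio was 0.43. Sema3e was 2.32-fold higher, at 1.996 CPM on 35 UMIs against 4.63 CPM on 73. Of these UMIs, 33 and 61 came from FAP2-like cells. Within that state Sema3e stood at 8.22 against 12.9 CPM, a log2 ratio of 0.65, with overlapping intervals and no call. The median log2 ratio of the 22 tested members was 0.21, beside 0.07 over all genes, and 17 of them were above 0. The other 9 members had too few UMIs for a call.

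Within the FAP states, a comparison added after the state levels were seen, the background of WT HFD against WT CD was 2.38% in FAP1-like, 1.75% in FAP2-like, 2.46% in FAP4-like, 2.46% in the Il6 and Myc state and 3.69% in the Timp1 and Col6a5 state. In FAP4-like cells 4 of 13 tested members were higher, namely Sema3c, Sema3d, Nrp1 and Nrp2. Sema3d stood at 50.8 against 90.1 CPM, Nrp1 at 21.3 against 44.4 CPM and Nrp2 at 6.86 against 20.5 CPM. In the Timp1 and Col6a5 state Sema3c and Nrp1 were higher, Nrp1 at 56.4 against 99.3 CPM. Sema3d and Sema5a were lower there, Sema5a at 62.0 against 37.9 CPM. No member was called in the remaining 3 states.

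Endothelial-like cells had 2 of 11 tested members called, against a background of 2.77%. Nrp2 was higher in WT HFD, at 77.0 CPM (62.1 to 94.5) against 150 (129 to 173), which was 1.95-fold. In vein-like cells, which numbered 14 in WT CD and 42 in WT HFD, it stood at 139 CPM (60.0 to 274, on 8 UMIs) and 364 (286 to 456), with intervals apart. In artery-like cells Nrp2 stood at 31.3 and 31.2 CPM and in capillary-like cells at 148 (109 to 196) and 207 (164 to 258), which overlapped. Sema7a was lower, at 102 CPM (84.8 to 122) against 59.5 (46.6 to 74.8), a 1.72-fold difference. Sema7a was lower in artery-like cells too, at 97.2 against 75.8 CPM, and in capillary-like cells, at 105 against 77.8 CPM, with overlapping intervals in each. Both differences were under the fold needed for a call. The WT HFD level of the whole class, 59.5 CPM, lay below both subclusters, so its other cells had a lower level. How far the make-up of the class entered the Sema7a call was not tested.

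MuSC-like cells had 1 of 6 tested members called, against a background of 9.88%. This was Plxna2, higher at 64.0 CPM (53.2 to 76.3) against 100 (86.3 to 116). The median gene of these cells was 0.18 higher on the log2 scale, and with edgeR TMM scaling the log2 ratio of Plxna2 fell from 0.65 to 0.45 and was not called. In macrophage-like cells 1 of 12 was called, against 7.6%. Sema4b was lower, at 17.3 CPM (12.7 to 22.9) against 7.201 (4.93 to 10.2). Nrp2 was lower as well, at 119 CPM (107 to 133) against 82.6 (74.4 to 91.5), but under the fold needed for a call. Plxnd1, lower at 141 CPM (127 to 155) against 102 (93.0 to 112), was also under it with intervals apart. Nrp1 went the other way, at 49.0 CPM (41.1 to 57.9) against 69.8 (62.2 to 78.0), again under the fold. The make-up of this class differed between the libraries, with 2 and 32 Mmp12 and Gpnmb cells and 7 and 53 Prg4 and Alox15 cells in WT CD and WT HFD. Without both, Sema4b was still called lower, at 16.9 against 7.71 CPM, Nrp2 stood at 121 against 104 CPM, and Nrp1 was called higher, at 48.5 against 80.9 CPM, with 7.11% of all genes called.

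**Figure D5:**
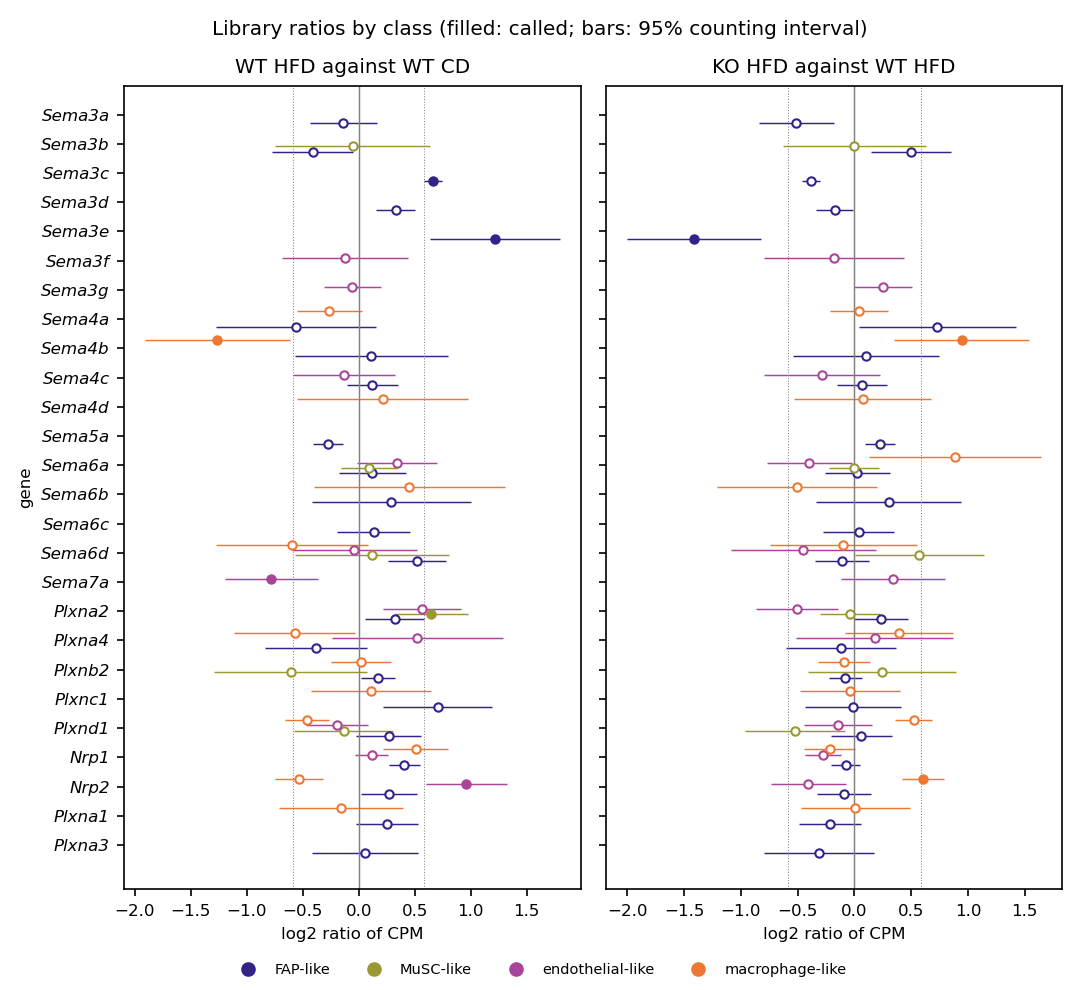
Log2 ratio of CPM (x axis) for each tested member (y axis) in 4 classes (colours), with WT HFD against WT CD on the left and KO HFD against WT HFD on the right. Bars are 95% counting intervals, dotted lines mark 1.5-fold, and filled points were called. The WT HFD library enters both panels.

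For KO HFD against WT HFD, which uses the same WT HFD library, 1 of 22 tested members was called in FAP-like cells, against 1.69% of 11902 genes. Sema3e was lower, at 4.63 CPM on 73 UMIs against 1.74 on 33. Sema3c was 0.38 lower on the log2 scale, under the fold needed for a call, and 0.08 lower within FAP2-like cells, where the intervals overlapped. FAP2-like cells made up 24.7% of FAP-like cells in WT HFD and 17.2% in KO HFD. The median log2 ratio of the members was -0.04, beside -0.03 over all genes. By state the background was 1.41% in FAP1-like, 1.27% in FAP2-like, 1.26% in FAP4-like, 1.45% in the Il6 and Myc state and 1.21% in the Timp1 and Col6a5 state. In FAP2-like cells 1 of 15 tested members was called, Sema3e, lower at 12.9 against 6.49 CPM. In FAP4-like cells 1 of 14 was called, Nrp2, lower at 20.5 against 5.69 CPM on 43 and 16 UMIs. In WT CD these 2 levels were 8.22 CPM for Sema3e and 6.86 CPM for Nrp2. No member was called in FAP1-like cells, the Il6 and Myc state or the Timp1 and Col6a5 state.

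In macrophage-like cells 2 of 13 tested members were called in KO HFD against WT HFD, both higher, against 5.13%. Nrp2 stood at 82.6 CPM (74.4 to 91.5) and 126 (116 to 135), a 1.52-fold difference. Within the Mmp12 and Retnla cells it stood at 108 and 158 CPM, and in the Folr2 and Cd163 cells at 139 and 119 CPM. Of the Mmp12 and Retnla cells, the part led by Dcstamp stood at 123 CPM (101 to 147) and 177 (159 to 197), with intervals apart, and the part led by Mmp12 and Gpnmb at 82.6 (59.7 to 111) and 108 (85.6 to 134), which overlapped. The Prg4 and Alox15 cells, 53 in WT HFD and 14 in KO HFD, had 1.24 CPM (0.031 to 6.89, on 1 UMI) and 32.8 (13.2 to 67.7, on 7 UMIs). Sema4b stood at 7.201 CPM on 32 UMIs and 13.9 on 75. Neither was called when each cell was classed by its own markers, with log2 ratios of 0.52 for Nrp2 and 0.76 for Sema4b, or without the Prg4 and Alox15 and the Mmp12 and Gpnmb cells, with 0.36 and 0.91. No member was called in endothelial-like cells, with 11 tested and a background of 3.08%, or in MuSC-like cells, with 6 tested and 2.26%. Sema6d was not called in either comparison. Of the tested genes within 10 Mb of Thbs1, the share called in KO HFD against WT HFD was 9.68% in FAP-like, 10% in MuSC-like, 3.57% in endothelial-like and 10% in macrophage-like cells, beside 1.69%, 2.26%, 3.08% and 5.13% of all genes. In WT HFD against WT CD these shares were 1.64%, 10.7%, 1.75% and 6.58%, beside 2.84%, 9.88%, 2.77% and 7.6%.

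Other genes of the pathway were taken as 13 partners and coreceptors, 18 intracellular effectors and 5 proteases that cut semaphorins or plexins. The VEGF receptor Kdr, a partner of neuropilins, was highest in endothelial-like cells at 687, 793 and 602 CPM, and L1cam and Chl1, partners of neuropilins in Sema3 signalling, were highest in Schwann-like cells, L1cam on 16, 31 and 34 UMIs. Tyrobp, the signalling adaptor of Trem2, was highest in macrophage-like cells at 1474, 1921 and 1734 CPM. No effector was called in WT HFD against WT CD in any of the 4 classes, with 17 of 18 tested in FAP-like cells and a median log2 ratio of 0.06. Of the proteases, Mmp14, a membrane metalloprotease that can shed Sema4d, was higher in FAP-like cells of WT HFD, at 85.0 against 129 CPM, 1 of 5 tested against 2.84% of all genes. The log2 ratio of Mmp14 was 0.60, just past the fold needed. Scaling by edgeR TMM shifted the ratios of this comparison by -0.07 in FAP-like cells, which is enough to end the call. Of the partners, Trem2, Cd72 and Vegfa were higher in macrophage-like cells of WT HFD, 3 of 5 tested against 7.6% of all genes. Trem2, a lipid-sensing receptor of macrophages that can pair with Plxna1, stood at 76.7 against 152 CPM, Cd72, a Sema4d receptor, at 17.3 against 32.2, and Vegfa, a neuropilin ligand, at 16.9 against 29.3. Only Cd72 was called of these 3 without the Mmp12 and Gpnmb and the Prg4 and Alox15 cells, at 17.7 against 34.995 CPM, while Trem2 stood at 75.6 against 99.8 and Vegfa at 15.4 against 19.3. In the Mmp12 and Gpnmb cells, 2 in WT CD and 32 in WT HFD, Trem2 was at 682 CPM and Vegfa at 121 CPM in WT HFD. For KO HFD against WT HFD, Vegfa was higher in MuSC-like cells, at 29.6 against 52.3 CPM, as was the convertase Pcsk5, at 6.03 against 16.3 CPM on 11 and 51 UMIs. These were 1 of 3 partners and 1 of 5 proteases tested, against 2.26%. The collapsin response mediator Dpysl3 was lower in macrophage-like cells, at 48.4 against 32.2 CPM, 1 of 11 effectors tested against 5.13%. With a log2 ratio of -0.59 it was just past the fold needed. The TMM shift of 0.03 for this comparison in macrophage-like cells is enough to end the call. Without the Mmp12 and Gpnmb and the Prg4 and Alox15 cells, Dpysl3 was called lower, at 58.1 against 35.2 CPM. No partner, effector or protease was called in endothelial-like cells in either comparison.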

How the data were processed

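The authors prepared the libraries with 10x Genomics 3′ V3.1 chemistry, aligned them to mm10 (GRCm38) with Cell Ranger (6.1.1 per the submitters' processing notes), and deposited whole-number UMI counts per gene and barcode, not normalized. All 12275 barcodes were used. Cells were scaled to 10000 counts, and 2000 variable genes without the 31 members gave 30 principal components, 15 neighbours and Leiden clusters at resolution 1 (scanpy 1.11.5, leidenalg 0.10.2, Python 3.11.15). Clusters were named from listed markers, and the way leading genes were taken was set after the clusters were seen. Scrublet marked 52, 41 and 58 doublets, which were kept. FAP-like cells were split by k-means with k = 5 without the members, the state markers and genes that differed between libraries. UMIs were summed per class and library and divided by the class total. Intervals were 95% exact Poisson for sums and Clopper-Pearson for shares. The members, gene lists and tests were chosen with earlier results of these data known. Named genes were all members that reached 20 CPM in any library in a class with at least 20 cells per library, those called between libraries, and the called genes of the pathway lists. Thbs1 is given as the gene the KO label names. Kdr, L1cam, Chl1 and Tyrobp are named outside this rule and were chosen after their values were seen. The calling rule was tried on simulated Poisson counts, the model that its intervals assume. Those counts hold no spread between cells or animals, so they cannot show how often it calls falsely here. TMM scaling used edgeR 4.0.16 (R 4.3.3). Promoters came from RefSeq and gene positions from GENCODE. Alternatives to these settings are in the closing section.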

Additional observations from a re-analysis of the deposited data

Results flagged for a closer look

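Nrp2 moved in opposite directions in 2 classes for WT HFD against WT CD, with intervals apart in each. Its log2 ratio was 0.96 in endothelial-like cells, with the values 77.0 and 150 CPM, and -0.53 in macrophage-like cells, with 119 and 82.6 CPM. The difference between the classes was not tested, since each group is 1 library. The second change was 1.44-fold and below the fold for a call. Vein-like cells numbered 14 and 42, with Nrp2 at 139 CPM (60.0 to 274) and 364 (286 to 456), intervals that lay apart. The Prg4 and Alox15 macrophage-like cells, with 2 and 1 Nrp2 UMIs, numbered 7 and 53. Without these and the Mmp12 and Gpnmb cells, which numbered 2 and 32, the log2 ratio of Nrp2 in macrophage-like cells was -0.22, at 121 and 104 CPM. No member was called in opposite directions in 2 classes, and looking at intervals that lay apart, without the fold, was chosen after that was seen.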

How the results depend on the processing

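No paired analysis was possible because each group is 1 library. The number of members called in FAP-like cells stayed within 1.5 times of the reported count under all 10 alternatives in each comparison. For the 4 classes together that held too for WT HFD against WT CD, while for KO HFD against WT HFD the count was 1 in place of 3 when each cell was classed by its own markers and when the Mmp12 and Gpnmb and the Prg4 and Alox15 macrophage-like cells were left out. In macrophage-like cells Nrp2 (log2 ratios 0.52 and 0.36) and Sema4b (0.76 and 0.91) were then not called. Plxna2 in MuSC-like cells was not called under that gate (0.55) or under edgeR TMM or median-of-ratios scaling (0.45 by each). TMM lowered the log2 ratios of WT HFD against WT CD by 0.20 in MuSC-like cells and moved the share of higher calls there from 80.4% to 43.8%, and in FAP-like cells from 45.5% to 25.9%. For KO HFD against WT HFD in MuSC-like cells that share moved from 35.7% to 58.5% (TMM). With members kept in the clustering, a cluster of 522 cells led by Retnla took 278 of the 335 Mmp12 and Retnla macrophage-like cells and was named dendritic cell-like. There the log2 ratio of Plxnd1 in endothelial-like cells (mean 176 CPM) to the next class was -0.032 in place of 0.35, and the next class was dendritic cell-like (180.4 CPM). Without thinning, the share of cells with a UMI was 85.9% in place of 57.8% for Sema3c in FAP2-like cells, 75.2% in place of 69.5% for Nrp1 in endothelial-like cells, 70.1% in place of 57.2% for Nrp2 in lymphatic-like cells, 44.7% in place of 30.04% for Sema6a in MuSC-like cells and 50.1% in place of 26.0% for Plxnd1 in macrophage-like cells. Of 417 recomputed values and counts, 391 kept their direction and call or stayed within the limits set for a change. Leaving out subclusters led by other genes, leaving out these macrophage-like subclusters and counting the Dio2 and Pthlh cluster as FAP-like were alternatives chosen after seeing the data. Leaving out a library was possible only for the order of classes and states, and low counts limit the Schwann-like values most.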

Other observations

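Classes with fewer than 20 cells in a library were left out of the comparisons, and their levels are given over all libraries together. Nrp1 stood at 184 CPM (145 to 230) in 73 mural cell-like cells, the pericytes and smooth muscle of vessels, and Plxnd1 at 87.0 CPM (61.0 to 121). In 111 monocyte-like cells Sema4d was at 118 CPM (92.2 to 148) and Plxnb2, a receptor of class 4 semaphorins, at 105 CPM (80.9 to 134). In 57 neutrophil-like cells Sema4a was at 138 CPM (80.1 to 220) on 17 UMIs and Sema4d at 121 CPM (67.9 to 200) on 15. Tenocyte-like cells, 60 in all, held Sema3c at 91.3 CPM (70.3 to 117).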
